A study of Mus musculus with 14 samples.

Results

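The 8 genes described here are the interferon regulatory factors Irf1 to Irf5 and Irf7 to Irf9, taken by name from a table of 56748 genes measured in mouse spinal cord. The table holds 14 libraries of poly(A) RNA, 1 for each cord, in 4 groups: AstroCSF1KO with spinal cord injury (SCI, n = 4), control with SCI (n = 4), AstroCSF1KO uninjured (n = 3) and control uninjured (n = 3). AstroCSF1KO stands for deletion of Csf1, the ligand that sustains microglia through the receptor Csf1r, in astrocytes. Injured tissue was taken at 7 days and centred on the lesion, and uninjured tissue came from the same level. The labels used here do not name the strain, the age or sex of the mice, or the driver of the deletion. The unit is FPKM, fragments scaled to gene length and library size, so levels can be set beside each other between genes, and each log2 change below is a difference of log2(FPKM + 1). Of the 8 genes, 7 reached 1 FPKM in at least 3 libraries and were tested among 15155 such genes. Irf4 did not, and Irf8 passed only through the 8 injured libraries, so it had to differ with injury.

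Interferon regulatory factors share an amino-terminal DNA-binding domain that reads the GAAA core of interferon-stimulated response elements. Irf3, Irf5 and Irf7 wait in the cytoplasm until a kinase downstream of a nucleic acid sensor phosphorylates them, and then enter the nucleus to induce interferons and cytokines. Irf9 is the DNA-reading subunit of ISGF3, the complex that carries the type I interferon signal, and Irf7 is itself an ISGF3 target. Irf1 is induced by interferon gamma and activates antigen processing and guanylate-binding protein genes, while Irf2 competes for many of the same sites. Irf8 and Irf4 act mainly in blood-derived cells, with the Ets factor PU.1 (gene Spi1), and Irf8 is required for normal microglia and for their reactive state after nerve injury. In nervous tissue, the message of most members is therefore read in microglia, macrophages and other responding cells together, and a bulk sample does not separate them.

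Recovered reads came to 13263610 to 21969581 per library. Csf1 itself, the deleted gene, averaged 18.5 ± 1.5 FPKM in AstroCSF1KO SCI cords and 13.6 ± 5.18 FPKM in control SCI cords (SD, n = 4 each), and 9.87 ± 1.45 FPKM in AstroCSF1KO uninjured cords and 9.46 ± 4.52 FPKM in control uninjured cords (SD, n = 3 each). It was not lower in the libraries labelled AstroCSF1KO, so each genotype direction below rests on the labels. Neuron, astrocyte and oligodendrocyte markers were present in all 14 libraries, as the tissue label has it. Control uninjured replicate 1 and control SCI replicates 1 and 4 stood apart: 1.45 to 2.06% of their detected genes had exactly 1 read, against 8.44 to 11.6% in the other 11 libraries, and mitochondrial transcripts held 6.73 to 13.9% of their reads, against 3.38 to 5.78%. In 4 AstroCSF1KO libraries (SCI replicates 2, 3 and 4, and uninjured replicate 3), rRNA genes took 2.89 to 3.99% of reads, against 0.290 to 0.764% elsewhere. Xist and Ddx3y marked both sexes in each group.

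Irf3, the constitutive sensor-activated factor, had the highest mean level of the family in all 4 groups. It averaged 7.30 ± 0.801 FPKM in AstroCSF1KO SCI cords, 5.59 ± 3.56 FPKM in control SCI cords, 5.77 ± 0.882 FPKM in AstroCSF1KO uninjured cords and 3.73 ± 1.99 FPKM in control uninjured cords (SD, n = 4, 4, 3 and 3). In AstroCSF1KO uninjured cords the order after Irf3 was Irf9, Irf2, Irf5, Irf7, Irf1, Irf8 and Irf4. Only the pairs Irf9 and Irf2, Irf9 and Irf5, and Irf7 and Irf1 had overlapping ranges. Irf8 stood seventh there, at 0.766 ± 0.139 FPKM (SD, n = 3). In AstroCSF1KO SCI cords Irf5 and Irf8 came next after Irf3, each range overlapping that of the neighbour above, ahead of Irf9, Irf7, Irf2, Irf1 and Irf4. In both control groups most neighbours overlapped, and the libraries that stand apart held low Irf3 and high Irf2. Irf4, a factor of lymphocytes and dendritic cells, was last everywhere, with 0 to 16 reads per library and at most 0.155 FPKM. The table's length for Irf7 is 3776 bases, the whole span of the gene, whereas the other members have lengths shorter than their spans, so the Irf7 level is less comparable with those of the others.

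**Figure D1:**
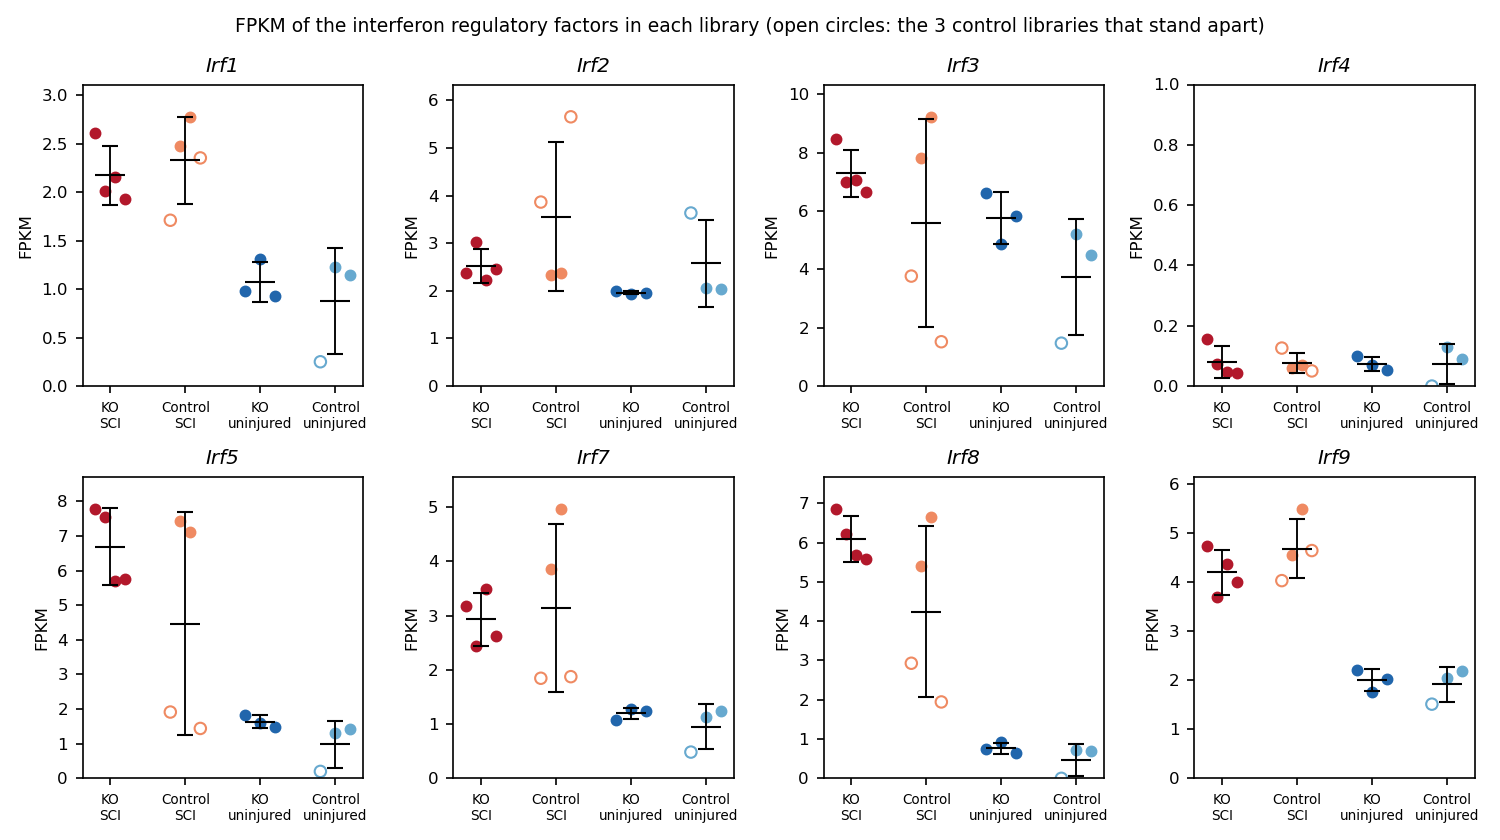
FPKM (vertical axis, linear from 0, a scale of its own for each gene) of the 8 members in each library, by group, with KO for AstroCSF1KO; points are libraries, open circles the 3 control libraries that stand apart, and bars the mean and SD. Irf8 lies between 5.59 and 6.86 FPKM in AstroCSF1KO SCI cords and below 1 FPKM in all 6 uninjured cords, while Irf4 stays near 0 throughout.

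In mm39, per the deposited table, all members lie on the plus strand except Irf7, and a value covers the whole gene. The table places Irf8 (ENSMUSG00000041515) at chr8:121463097-121483433 and Irf2 (ENSMUSG00000031627) at chr8:47192767-47300493 on the same chromosome, and Irf3 (ENSMUSG00000003184) at chr7:44647072-44652272 and Irf7 (ENSMUSG00000025498) at chr7:140842619-140846394 on another. It places Irf1 (ENSMUSG00000018899) at chr11:53660841-53669200, Irf4 (ENSMUSG00000021356) at chr13:30933209-30950959, Irf5 (ENSMUSG00000029771) at chr6:29526624-29541870 and Irf9 (ENSMUSG00000002325) at chr14:55841028-55847487.

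The letters upstream of the starts of Irf8, Irf1 and Irf2 are shown because these 3 of the 8 members held a match to one of 3 binding motifs within 250 bases before to 50 bases after a RefSeq start. The motifs, sought on both strands, were a pair of GAAA separated by any 2 bases for the core of the interferon-stimulated response element (ISRE), TTCNNNGAA for the gamma-activated site (GAS) and GGAA followed after any 2 bases by GAAA for the composite element of Ets factors and Irf4 or Irf8 (EICE). All 8 members had a start in the RefSeq table, 11 windows in all. The 250 bases before each start follow, on the plus strand of GRCm38.p6, 5′ to 3′, with matches in capitals. The Irf8 window lies at chr8:120736108-120736357, the Irf1 window at chr11:53769764-53770013 and the Irf2 window at chr8:46739495-46739744.
Irf8: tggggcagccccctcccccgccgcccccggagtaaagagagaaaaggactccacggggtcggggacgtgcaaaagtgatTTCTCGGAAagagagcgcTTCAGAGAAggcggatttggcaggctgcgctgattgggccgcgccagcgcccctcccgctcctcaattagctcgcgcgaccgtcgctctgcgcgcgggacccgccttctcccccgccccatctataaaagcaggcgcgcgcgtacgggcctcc
Irf1: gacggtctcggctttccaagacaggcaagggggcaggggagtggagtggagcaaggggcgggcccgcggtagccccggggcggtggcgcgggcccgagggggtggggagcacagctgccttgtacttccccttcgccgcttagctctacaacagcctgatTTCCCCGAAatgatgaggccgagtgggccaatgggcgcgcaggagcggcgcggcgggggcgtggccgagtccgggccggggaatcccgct
Irf2: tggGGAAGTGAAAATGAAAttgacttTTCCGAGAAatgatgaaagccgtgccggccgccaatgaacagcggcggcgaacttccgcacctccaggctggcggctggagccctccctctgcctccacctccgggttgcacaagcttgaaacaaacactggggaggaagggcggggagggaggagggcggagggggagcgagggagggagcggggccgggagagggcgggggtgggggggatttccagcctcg
Irf8 held 2 GAS matches, TTCTCGGAA and TTCAGAGAA, beginning 171 and 153 bases before the start. Irf1 held 1, TTCCCCGAA, beginning 90 bases before the start. Irf2 held an EICE match, GGAAGTGAAA, at 247 bases, which overlaps an ISRE match, GAAAATGAAA, at 241 bases, and a GAS match, TTCCGAGAA, at 224 bases. Among all 32851 windows of this length in the table, 8.30% held the GAS letters, 3.44% the ISRE letters and 2.72% the EICE letters. The windows of Irf3, Irf4, Irf5, Irf7 and Irf9 held none, and the second windows of Irf1 and Irf8 also held none.

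In AstroCSF1KO cords, Irf5, Irf7, Irf9 and Irf1 rose on injury, and Irf2 and Irf3 were higher without passing the test. Irf8 is kept out of the counts that follow, since the filter fixed its difference. Of the other 7 members, 4 were called higher and none lower; of all 15155 genes tested, 19.7% were called higher and 26.1% lower (limma with Benjamini-Hochberg adjustment over all genes, adjusted p under 0.05). The 6 of them that were tested each had all 4 injured values above all 3 uninjured ones, a pattern that 22.3% of tested genes showed. In control cords the log2 changes had the same sign for all 6, and none was called, where 1.03% of genes were called higher. In 4 of them, Irf1, Irf5, Irf7 and Irf9, all 4 injured values lay above all 3 uninjured ones there, as for 7.79% of genes. Without the 3 libraries that stand apart, 5 of the 6 were called higher in control cords, all but Irf2, where 12.2% of genes were. In the control libraries that remain, both uninjured cords had Xist and both SCI cords had Ddx3y above 1 FPKM, so in every control injury value without the 3 libraries sex and injury cannot be told apart. With replicate number as a block, the same 5 genes were called, where 5.32% of genes were. In that fit, control replicates 2 and 3 also set an uninjured cord with Xist against an SCI cord with Ddx3y. Replicate 1 had Ddx3y in both, and the part of sex was not tested. In bulk tissue, fewer cells of a type and less RNA per cell cannot be told apart, and the same holds for more of either.

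Irf8, the factor of microglia and macrophages, changed most of the family. Its level was 6.86, 6.23, 5.68 and 5.59 FPKM in the AstroCSF1KO SCI cords, against 0.752, 0.912 and 0.634 FPKM in the AstroCSF1KO uninjured cords. The groups were far apart, and the means differed 7.95-fold. The log2 change was 2.004 ± 0.090 (SE). Its p among the filtered genes is not given, as the filter fixed the difference; with no filter on low values, over 36121 genes with a read, the limma adjusted p was 0.000227. Control SCI cords held 2.93, 5.42, 6.66 and 1.94 FPKM, against 0, 0.729 and 0.689 FPKM in control uninjured cords. Here too every injured cord exceeded every uninjured one, with the libraries that stand apart lowest in both groups and replicate 1 of the uninjured ones at 0 reads, a count that allows up to 3 reads. The control change was 1.77 ± 0.39 (SE), with a limma adjusted p of 0.291 with no filter, and it was 2.04 ± 0.12 without those libraries and 2.02 ± 0.14 with the replicate block.

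Irf5, the factor that links Toll-like receptors to inflammatory cytokines, changed second most. AstroCSF1KO SCI cords held 7.78, 7.54, 5.71 and 5.76 FPKM, against 1.83, 1.61 and 1.47 FPKM in AstroCSF1KO uninjured cords. The lowest injured cord was far above the highest uninjured one, and the log2 change was 1.54 ± 0.12 (SE; limma adjusted p = 4.71e-05). Control SCI cords held 1.91, 7.42, 7.10 and 1.44 FPKM, against 0.200, 1.32 and 1.42 FPKM in control uninjured cords. Replicates 2 and 3 lay close to the AstroCSF1KO values, and replicate 4 was barely above the highest uninjured cord. The control change was 1.31 ± 0.54 (SE; limma adjusted p = 0.485), against 1.802 ± 0.088 without the 3 libraries (adjusted p = 0.00242) and 1.63 ± 0.17 with the replicate block (adjusted p = 0.0148). Tnpo3, which overlaps the Irf5 gene on the other strand by 1045 bases, had log2 changes of -0.03 in AstroCSF1KO and -0.04 in control cords and was not called.

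Irf7, the amplifying factor of interferon alpha production, had 3.17, 2.43, 3.49 and 2.63 FPKM in AstroCSF1KO SCI cords, against 1.08, 1.28 and 1.24 FPKM in AstroCSF1KO uninjured cords. The groups did not overlap, and the log2 change was 0.83 ± 0.11 (SE; limma adjusted p = 0.000555). Control SCI cords held 1.84, 3.87, 4.96 and 1.87 FPKM, against 0.484, 1.13 and 1.25 FPKM in control uninjured cords. Replicates 2 and 3 of the injured controls were the highest of all 14 libraries. The control change was 1.03 ± 0.34 (SE; limma adjusted p = 0.306), 1.30 ± 0.13 without the 3 libraries (adjusted p = 0.00891) and 1.18 ± 0.15 with the replicate block (adjusted p = 0.0242).

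Irf9, which binds DNA within ISGF3, had 4.73, 3.69, 4.36 and 4.00 FPKM in AstroCSF1KO SCI cords, against 2.21, 1.77 and 2.01 FPKM in AstroCSF1KO uninjured cords. Its log2 change was 0.79 ± 0.09 (SE; limma adjusted p = 0.000301). Control SCI cords held 4.03, 4.54, 5.48 and 4.64 FPKM, against 1.51, 2.04 and 2.19 FPKM in control uninjured cords. Unlike Irf3, Irf5, Irf7 and Irf8, it was not low in control SCI replicate 4. The control change was 0.96 ± 0.20 (SE; limma adjusted p = 0.0842), 0.94 ± 0.11 without the 3 libraries (adjusted p = 0.0113) and 0.96 ± 0.12 with the replicate block (adjusted p = 0.0213). Rnf31, which shares 123 bases with Irf9 on the same strand, had log2 changes of -0.10 in AstroCSF1KO and -0.05 in control cords, neither called.

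Irf1, the interferon gamma-induced activator, had 2.61, 2.01, 2.16 and 1.93 FPKM in AstroCSF1KO SCI cords, against 0.980, 1.31 and 0.932 FPKM in AstroCSF1KO uninjured cords. The ranges were apart, with a log2 change of 0.61 ± 0.11 (SE; limma adjusted p = 0.00226). Control SCI cords held 1.71, 2.47, 2.78 and 2.35 FPKM, against 0.251, 1.23 and 1.15 FPKM in control uninjured cords. The value of control uninjured replicate 1 rests on 12 reads. The control change was 0.86 ± 0.27 (SE; limma adjusted p = 0.270), 0.73 ± 0.10 without the 3 libraries (adjusted p = 0.0148) and 0.86 ± 0.16 with the replicate block (adjusted p = 0.0487).

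Irf2, the competitor of Irf1, and Irf3 had the smallest changes of the 7 tested. Irf2 had 2.38, 3.03, 2.23 and 2.45 FPKM in AstroCSF1KO SCI cords, against 2.001, 1.93 and 1.96 FPKM in AstroCSF1KO uninjured cords. Its log2 change of 0.24 ± 0.09 (SE) had a limma adjusted p of 0.0551. Irf3 had 8.47, 6.99, 7.08 and 6.66 FPKM in AstroCSF1KO SCI cords, against 6.62, 4.86 and 5.83 FPKM in AstroCSF1KO uninjured cords. The lowest injured cord was barely above the highest uninjured one, and the log2 change was 0.30 ± 0.11 (SE; limma adjusted p = 0.0530). Both missed the threshold narrowly, and both passed it with median-of-ratios scaling. In control cords neither gene separated the groups: Irf2 had 3.87, 2.34, 2.38 and 5.66 FPKM in control SCI cords, against 3.64, 2.06 and 2.03 FPKM in control uninjured cords. Irf3 had 3.77, 7.82, 9.23 and 1.52 FPKM in control SCI cords, against 1.47, 5.23 and 4.48 FPKM in control uninjured cords. The 3 libraries that stand apart were the 3 highest of all 14 for Irf2 and the 3 lowest for Irf3. The control change of Irf3 was 0.39 ± 0.56 (SE; limma adjusted p = 0.999) with all libraries, 0.70 ± 0.12 without the 3 (adjusted p = 0.0220) and 0.78 ± 0.14 with the replicate block (adjusted p = 0.0469). The control change of Irf2 was 0.32 ± 0.32 (SE; limma adjusted p = 0.999), and 0.14 ± 0.09 without the 3 libraries (adjusted p = 0.310). Bcl2l12, which overlaps Irf3 on the other strand by 1065 bases, had a log2 change of 0.42 in AstroCSF1KO and 0.17 in control cords, neither called, and reads of the pair cannot be told apart there.

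**Figure D2:**
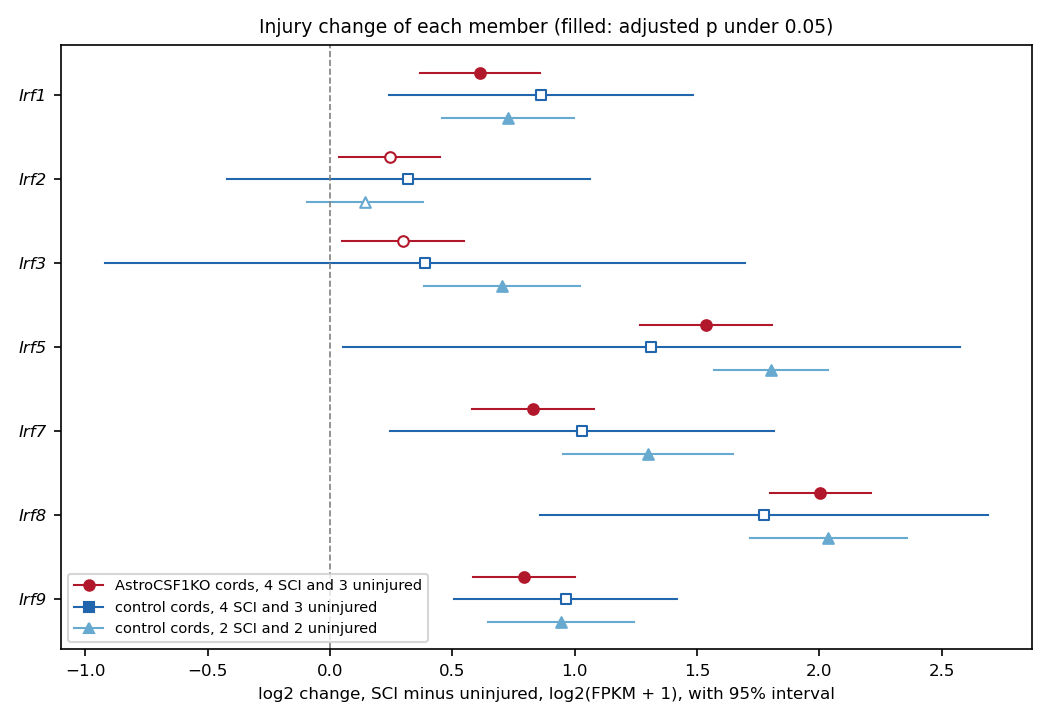
Log2 change on injury (horizontal axis, SCI minus uninjured, with the 95% interval of the limma fit) of the 7 tested members in AstroCSF1KO cords, in control cords, and in control cords without the 3 libraries that stand apart; filled symbols have an adjusted p under 0.05, and the filter fixed the difference of Irf8. Irf8 and Irf5 have the largest changes in AstroCSF1KO cords, 2.004 and 1.54, and the control intervals narrow when the 3 libraries are left out.

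Irf4 had 0.155, 0.0734, 0.0460 and 0.0440 FPKM in AstroCSF1KO SCI cords, against 0.0993, 0.0696 and 0.0525 FPKM in AstroCSF1KO uninjured cords, that is 4 to 16 reads in the injured and 5 to 10 in the uninjured libraries. The groups overlapped, with a log2 difference of 0.0069 (exact two-sided permutation test, p = 1). In control cords the difference was 0.0070 (exact permutation, p = 0.971). A change of Irf4 was not detectable at this depth.

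The make-up of the family moved with injury. Its summed level was 29.1 to 36.2 FPKM in AstroCSF1KO SCI cords, against 13.7 to 15.6 FPKM in AstroCSF1KO uninjured cords. Irf3 held 21.8 to 23.4% of that sum in AstroCSF1KO SCI cords, against 35.4 to 42.5% in AstroCSF1KO uninjured cords. Irf8 held 18.5 to 19.5%, against 4.49 to 6.64%, and Irf5 18.6 to 23.6%, against 10.4 to 11.7%. Thus Irf3, Irf5 and Irf8 held like shares in the AstroCSF1KO SCI cords, whereas Irf3 stood alone in the AstroCSF1KO uninjured ones. The share of Irf9 had overlapping ranges, 11.5 to 14.2% in AstroCSF1KO SCI cords and 12.8 to 14.3% in AstroCSF1KO uninjured cords. In control cords the sum was 19.5 to 38.7 FPKM with SCI, against 7.55 to 13.9 FPKM uninjured. There Irf8 held 9.99 to 17.2% with SCI, against 0 to 5.25% uninjured, again apart. The control shares of Irf3, 7.80 to 23.9% with SCI and 19.5 to 37.7% uninjured, overlapped, as did those of Irf5, 7.39 to 21.9% with SCI and 2.65 to 10.7% uninjured. In control uninjured replicate 1, Irf2 held 48.2% and Irf3 19.5%. In the control libraries that do not stand apart, Irf3 held 23.04 and 23.9% with SCI, against 37.7 and 33.7% uninjured, and Irf5 21.9 and 18.4%, against 9.51 and 10.7%.

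**Figure D3:**
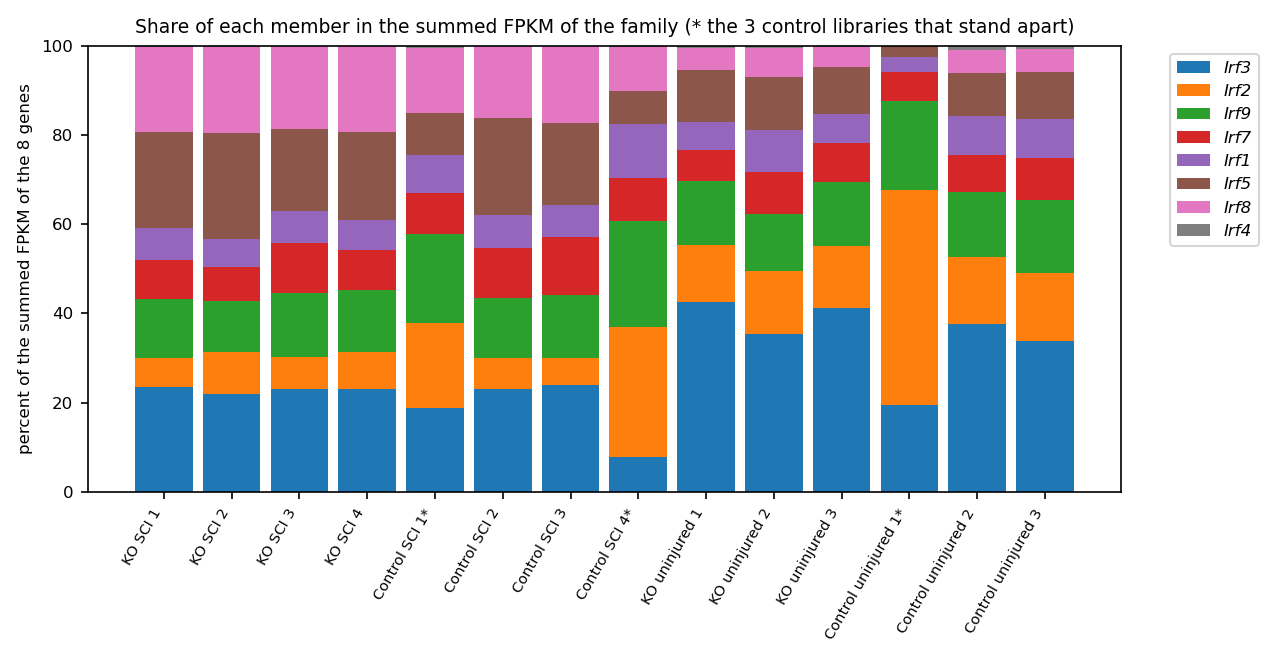
Percentage of the summed FPKM of the 8 genes held by each member (vertical axis, 0 to 100), 1 bar per library, KO for AstroCSF1KO, asterisks for the 3 control libraries that stand apart. Irf8 is wider in the injured cords of both genotypes, Irf5 in those of AstroCSF1KO, and Irf2 takes 19.2 to 48.2% in the 3 marked libraries.

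Pairs of members with opposed or linked roles were set against each other within each library, on the log2(FPKM + 1) scale. The Irf7 to Irf3 log2 ratio was -1.18, -1.22, -0.85 and -1.08 in AstroCSF1KO SCI cords, against -1.87, -1.36 and -1.61 in AstroCSF1KO uninjured cords. All 4 injured ratios were above all uninjured ones, with a difference of 0.53 (exact two-sided permutation test, p = 0.0571, the smallest that 4 against 3 allows). In control cords the difference was 0.64, with overlapping groups (exact permutation, p = 0.229), and 0.60 without the 3 libraries that stand apart. The Irf1 to Irf2 log2 ratio differed by 0.37 on injury in AstroCSF1KO cords (exact permutation, p = 0.114) and by 0.54 in control cords (exact permutation, p = 0.343), or 0.58 without the 3 libraries. After adjustment over the 12 ratio comparisons computed, no p was below 0.171.

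Microglia and macrophage markers moved with these members. All 16 markers were called higher on injury in AstroCSF1KO cords, with a median log2 change of 2.94, where 19.7% of all genes were. Of these 16, Ptprc reached 1 FPKM in injured libraries only, so the filter fixed its difference, and the marker counts here include it. In control cords 9 of 16 were, with a median of 2.60, where 1.03% of all genes were. In the remaining control libraries, with the 3 left out, all 16 were called higher, with a median of 2.74, where 12.2% of all genes were. Their summed FPKM was 1977 to 2665 in AstroCSF1KO SCI cords, against 199 to 248 in AstroCSF1KO uninjured cords, and 1138 to 2054 in control SCI cords, against 126 to 233 in control uninjured cords. None of the 16 was at 0 in any group. Relative to that sum, Irf8 held 0.254 to 0.287% in AstroCSF1KO SCI cords and 0.262 to 0.379% in AstroCSF1KO uninjured cords, ranges that overlap. Irf5 held 0.282 to 0.307% in AstroCSF1KO SCI cords, against 0.607 to 0.920% in AstroCSF1KO uninjured cords, so its share of the marker sum was lower in all 4 injured cords. Within control cords both shares overlapped: Irf8 held 0.171 to 0.324% with SCI, against 0 to 0.382% uninjured, and Irf5 0.127 to 0.381% with SCI, against 0.159 to 0.787% uninjured. In the control libraries that do not stand apart, Irf5 held 0.381 and 0.346% with SCI, against 0.565 and 0.787% uninjured. These plain shares were chosen after the values were seen. The log2(FPKM + 1) form of the Irf8 ratio to the mean of the markers differed by -0.93 on injury in AstroCSF1KO cords (exact permutation, p = 0.0571) and by -1.03 in control cords (exact permutation, p = 0.0571), or -0.81 without the 3 libraries. With a pseudocount of 0.1 the difference was -0.39 in AstroCSF1KO and 0.09 in control cords. Neutrophil markers summed to 28.03 to 51.6 FPKM in AstroCSF1KO SCI cords and 9.30 to 16.1 FPKM in AstroCSF1KO uninjured cords. Of the 4 tested, 2 were called higher there, S100a8 and Csf3r, where 19.7% of all genes were. None was called in control cords (1.03% of genes), and 3 were without the 3 libraries (12.2%). Dendritic cell markers summed to 36.4 to 43.0 FPKM in AstroCSF1KO SCI cords and 17.0 to 19.0 FPKM in AstroCSF1KO uninjured cords. In AstroCSF1KO SCI cords most of the dendritic sum was Bst2, which is also on the list of type I interferon targets. Its mean was 24.03 FPKM there, against 5.34 FPKM in AstroCSF1KO uninjured cords, where it was not most of the sum. Batf3, another dendritic marker, reached 1 FPKM in injured libraries only and was not called in AstroCSF1KO cords. Of the 5 dendritic markers tested, 3 were called higher and 1 lower, Flt3, a receptor of dendritic cell precursors, with a mean of 2.31 FPKM in AstroCSF1KO SCI cords, against 4.15 FPKM in AstroCSF1KO uninjured cords (log2 change -0.64 ± 0.07, SE; limma adjusted p = 0.000235). Summed B and plasma cell markers ranged from 26.4 to 32.1 FPKM in AstroCSF1KO SCI cords and from 18.6 to 27.96 FPKM in AstroCSF1KO uninjured cords. Most of that sum was Xbp1, the only 1 of the 10 to pass the filter. Its means were 27.1 FPKM in AstroCSF1KO SCI cords and 21.4 FPKM in AstroCSF1KO uninjured cords, and it was not called. The part of each cell type in the members' changes was not tested.

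For each tested member, the 3 protein-coding genes with the most similar profile over the 14 libraries were found among 13091 genes, by the root mean square difference of centred log2(FPKM + 1) values. Irf8 lay nearest to Hexa, a lysosomal hexosaminidase subunit (0.141), Rac2, a haematopoietic GTPase (0.145), and Csf1r, the CSF1 receptor (0.148), while its own values varied by 1.02 around their mean. Csf1r had a log2 change on injury of 2.02 in AstroCSF1KO and 1.92 in control cords. Irf5 lay nearest to Tgfb1, the cytokine (0.151), Tcirg1, a proton pump subunit (0.167), and Fermt3, an integrin activator of blood cells (0.173). Irf7 lay nearest to Igtp, an interferon-inducible GTPase (0.138), Loxl3 (0.147) and Oas1a, an interferon-induced oligoadenylate synthetase (0.170). Irf9 lay nearest to Irgm2, another such GTPase (0.0852), Nlrp3, the inflammasome sensor (0.0976), and Parp9 (0.108). Irf1 had Naaa, Hnrnpf and Eef2kmt (0.113 to 0.128), Irf2 had Fgd4, Tra2b and Kdm1b (0.0755 to 0.0771) and Irf3 had Coro1b, Cdc42se1 and Lsr (0.115 to 0.124). These distances share the 14 libraries, including the 3 that stand apart, and are a description without a test.

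The genes that signal to and from the family are given by lists. Some of those tested reached 1 FPKM in injured libraries only, so that, like Irf8, they had to differ: 2 of 8 partners, 4 of 17 sensors and adaptors, 4 of 17 type I interferon targets, 5 of 15 interferon gamma and Irf1 targets and 1 of 11 inhibitors, with Ikzf1, Tlr7 and Cxcl10 among them. The counts below include them and stand beside a median log2 change over all 15155 genes of -0.03 in AstroCSF1KO and -0.05 in control cords. Of all genes, 19.7% were called higher and 26.1% lower in AstroCSF1KO cords, and 1.03% higher and 0.0132% lower in control cords. Without the 3 libraries that stand apart, 12.2% were called higher and 11.7% lower in control cords. Among partners of the family in ISGF3 and related complexes, 7 of 8 tested genes rose on injury in AstroCSF1KO cords, with a median change of 0.34. They included Spi1, the PU.1 partner of Irf8, with a log2 change of 2.11 ± 0.11, and Stat3, with 0.60 ± 0.06 (SE, limma adjusted p at most 0.000151). Ikzf1, a lymphoid and myeloid factor whose difference the filter fixed, changed by 1.17 ± 0.09 (SE). Of 17 tested sensors and adaptors upstream of Irf3, Irf5 and Irf7, 14 rose and 2 fell, with a median of 0.63. Unc93b1, the chaperone of endosomal Toll-like receptors, changed by 2.38 ± 0.10 and the cyclic dinucleotide receptor Sting1 by 1.38 ± 0.12 (SE, limma adjusted p at most 9.23e-05). The RNA sensor Tlr7, whose difference the filter fixed, changed by 2.27 ± 0.15 (SE). The 2 that fell, named after their values were seen, were the kinase gene Tbk1 (-0.19) and the adaptor gene Traf3 (-0.26), which act directly upstream of Irf3 and Irf7. In control cords none of the 8 partners was called, with a median of 0.41. Of the 17 sensors, with a median of 0.57, only Tlr7 was, and the filter fixed its difference. Tlr7 changed there by 2.37 ± 0.27 (SE). With the 3 libraries left out, 4 of the 8 partners and 11 of the 17 sensors were called higher in control cords, and Tlr7 changed by 2.06 ± 0.13 (SE).

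Interferon messages themselves were close to absent. Of 16 interferon genes, 14, among them Ifnb1 and Ifng, had 0 reads in each of the 14 libraries, a count compatible with up to 3 reads per library; Ifna2 had 1 read in 1 library, and Ifnk 24 reads over 7 libraries. None could be tested, and at this depth low interferon expression was not detectable. Of 8 tested receptors and kinases, 6 rose on injury in AstroCSF1KO cords, with a median of 0.42. Il10rb, a subunit of the lambda receptor, changed by 1.37 ± 0.12, Ifngr1 by 1.20 ± 0.13 and Ifnar1 by 0.44 ± 0.07 (SE; limma adjusted p at most 0.00170). In control cords 1 of the 8, Ifngr1, was called, with 1.24 ± 0.19 (SE; limma adjusted p = 0.0318). When those 3 were omitted 4 were called, and Ifngr1 changed by 1.08 ± 0.09 (SE; limma adjusted p = 0.00652).

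Target genes of the family rose in AstroCSF1KO cords. Of 17 tested type I interferon targets, 16 rose and 1 fell, with a median of 0.73, and of 15 interferon gamma and Irf1 targets 12 rose and none fell, with a median of 0.72. Bst2, the virion-tethering protein, changed by 1.99 ± 0.16, the membrane protein Ifitm3 by 1.65 ± 0.10 and Oasl2 by 0.96 ± 0.08 (SE; limma adjusted p at most 7.21e-05). The 1 that fell was Cmpk2, a nucleotide kinase gene (-0.47), named after its value was seen. The GTPases Irgm2 and Igtp changed by 0.91 ± 0.09 and 0.72 ± 0.07 (SE, limma adjusted p at most 0.000136). The chemokine Cxcl10, whose difference the filter fixed, changed by 1.501 ± 0.155 (SE). In control cords the medians were 1.11 and 0.73. None of the 17 was called, and of the 15 only Cxcl10, whose difference the filter fixed, with 1.84 ± 0.29 (SE). Without the 3 libraries, 15 of the 17 were called higher and 1 lower, and 11 of the 15 higher, with Cxcl10 at 1.56 ± 0.34 (SE). Of all genes, 12.2% were called higher and 11.7% lower in that fit. Among inhibitors and binding proteins of the family, 5 of 11 rose and 2 fell in AstroCSF1KO cords, with a median of 0.12. Of all genes, 19.7% were called higher and 26.1% lower there. Socs3, the feedback inhibitor of cytokine receptors, changed by 1.89 ± 0.19, the interferon-inducible Nmi by 0.56 ± 0.09 and Irf2bp1, an Irf2-binding co-repressor, by -0.61 ± 0.08 (SE; limma adjusted p at most 0.00118). The other that fell, named after its value was seen, was Pias4, a SUMO ligase gene (-0.28). None of the 11 was called in control cords, with a median of 0.16. Without the 3 libraries 4 were called higher, where 12.2% of all genes were. Neuron markers fell beside these, 6 of 6 in AstroCSF1KO cords with a median of -0.69.

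**Figure D4:**
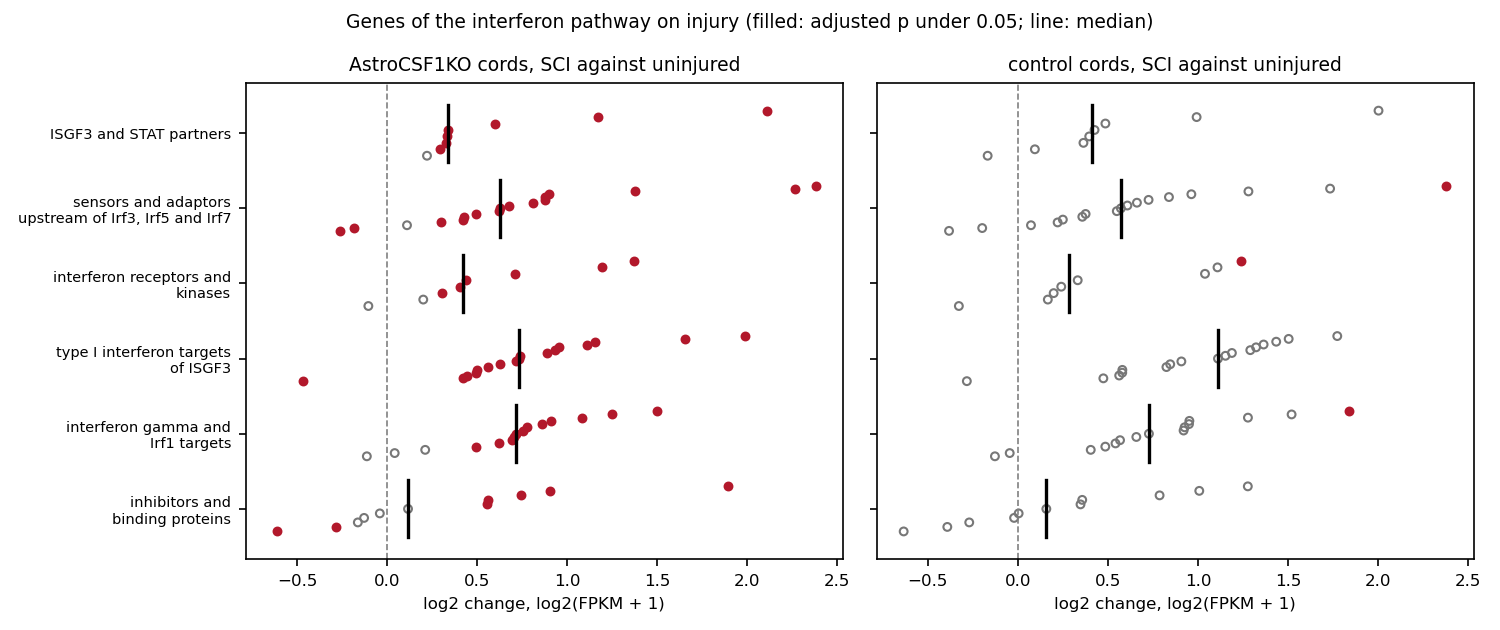
Log2 change on injury (horizontal axis) of each tested gene of 6 pathway lists in AstroCSF1KO cords (left) and control cords (right), on the log2(FPKM + 1) scale; filled red points have an adjusted p under 0.05 and black lines are list medians. The medians of the type I interferon targets are 0.73 in AstroCSF1KO and 1.11 in control cords. Of these targets 17 are called on the left and none on the right, and the filter fixed the difference of 4.

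Between genotypes of injured cords, no member was called, and neither was any of the 15155 genes (0% called by limma; 497 had an unadjusted p under 0.05, and voom on recovered reads also called none). The log2 differences, AstroCSF1KO minus control, were 0.70 for Irf5 (95% interval -0.27 to 1.67), 0.53 for Irf8 (-0.13 to 1.20) and 0.53 for Irf3 (-0.41 to 1.46). For Irf2 the difference was -0.32 (-0.85 to 0.22), for Irf9 -0.13 (-0.43 to 0.18), for Irf1 -0.06 (-0.39 to 0.27) and for Irf7 -0.01 (-0.60 to 0.59). The ranges of both genotypes overlapped for all 7; of all genes, 2.14% were higher and 1.01% lower without overlap. Without the 2 injured control libraries that stand apart, the differences of Irf5 and Irf3 were -0.11 and -0.20 and that of Irf8 was 0.01, with Irf1 at -0.20, Irf9 at -0.21 and Irf2 at 0.06, so the higher means of Irf5, Irf3 and Irf8 in AstroCSF1KO SCI cords rested on those libraries. A difference of Irf7 appeared instead: 3.17, 2.43, 3.49 and 2.63 FPKM in AstroCSF1KO SCI cords were all below the 3.87 and 4.96 FPKM of control SCI replicates 2 and 3. Its difference was then -0.46 (95% interval -0.80 to -0.13), with an unadjusted limma p of 0.0138 and a limma adjusted p of 0.714. In that comparison 8.01% of all genes were lower without overlap. Both of its control SCI cords had Ddx3y above 1 FPKM, whereas 2 of the 4 AstroCSF1KO SCI cords had Ddx3y and 2 had Xist. The part of sex in these differences was not tested. The Irf7 to Irf3 log2 ratio, AstroCSF1KO minus control SCI cords, differed by -0.53 with all libraries (exact two-sided permutation test, p = 0.0571; adjusted over 12 comparisons, 0.171), and by -0.26 without the 2 (exact permutation, p = 0.267). The summed FPKM of microglia and macrophage markers was 1977 to 2665 in AstroCSF1KO SCI cords and 1948 and 2054 in these 2 controls, and its part in the differences was not tested.

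In uninjured cords no member and no gene was called between genotypes (0% by limma; 331 had an unadjusted p under 0.05, and voom also called none). Irf3 was at 0.62 (95% interval -0.30 to 1.53), Irf5 at 0.48 (-0.23 to 1.19), Irf8 at 0.30 (-0.28 to 0.88) and Irf2 at -0.24 (-0.75 to 0.27) as log2 differences, AstroCSF1KO minus control. Irf7, Irf1 and Irf9 were at 0.19, 0.19 and 0.05. Without control uninjured replicate 1 the differences were smaller or turned sign: Irf3 was at 0.20 (-0.13 to 0.54), Irf8 at 0.04 (-0.20 to 0.29), Irf7 at 0.0067, Irf1 at -0.08 and Irf9 at -0.06. Irf5 was higher in all 3 AstroCSF1KO uninjured cords than in all 3 controls, as were 12.2% of genes, and Irf2 was lower in all 3, as were 11.1%. Both orders held without that library, with differences of 0.15 for Irf5, where 17% of genes were higher without overlap, and -0.04 for Irf2, where 17.6% were lower. Both control cords left had Xist above 1 FPKM, against 1 of the 3 AstroCSF1KO uninjured cords, and the part of sex was not tested. Irf4 differed by 0.0027 between injured and by 0.0028 between uninjured genotypes (exact permutation, p = 0.914 and p = 1).

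The interaction, the injury change in AstroCSF1KO cords minus that in control cords, was fitted over all 14 libraries. No member was called, and no gene was (0% by limma; 91 had an unadjusted p under 0.05). Irf8 had an interaction of 0.23 (95% interval -0.67 to 1.14), Irf5 of 0.22 (-1.05 to 1.495), Irf1 of -0.25 (-0.86 to 0.36), Irf7 of -0.20 (-0.98 to 0.58), Irf9 of -0.17 (-0.58 to 0.24), Irf3 of -0.09 (-1.41 to 1.22) and Irf2 of -0.08 (-0.79 to 0.64). The intervals include changes of more than 1 for Irf8, Irf5 and Irf3, so the data do not show that the genotypes respond alike. Without the 3 libraries the interaction of Irf7 was -0.47 (-0.87 to -0.07; limma adjusted p = 0.322) and that of Irf3 -0.40 (-0.80 to -0.01; adjusted p = 0.346). The others were -0.27 for Irf5, -0.15 for Irf9, -0.11 for Irf1, 0.10 for Irf2 and -0.03 for Irf8. Sex and injury cannot be told apart in the controls of that subset.

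**Figure D5:**
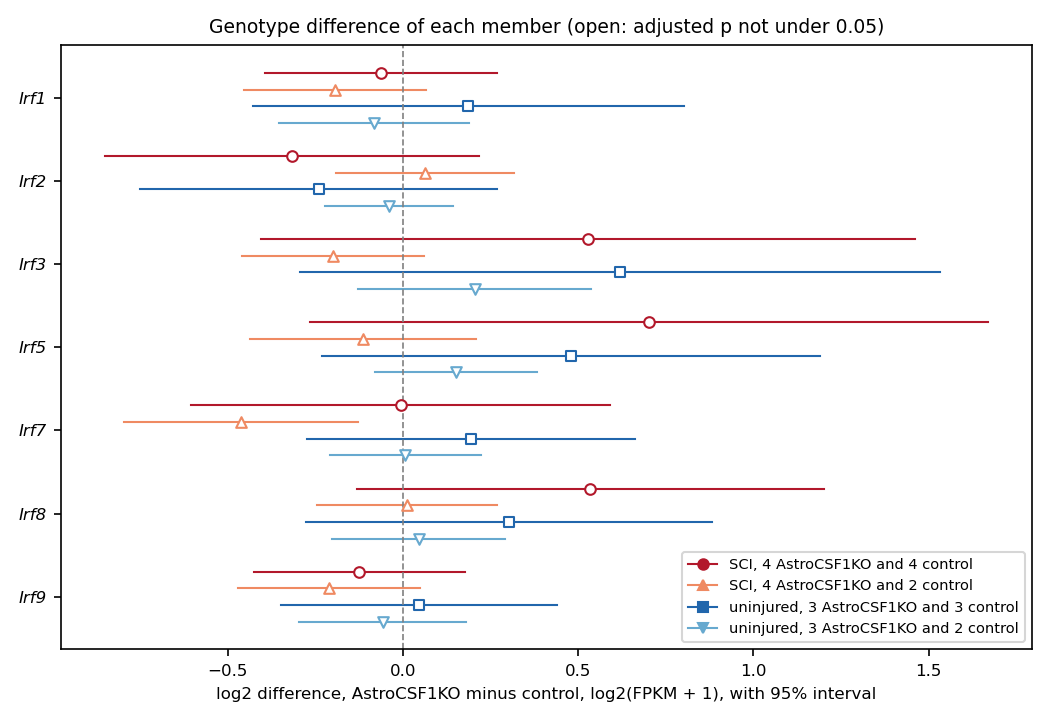
Log2 difference between genotypes (horizontal axis, AstroCSF1KO minus control, with the 95% interval of the limma fit) of the 7 tested members in injured and uninjured cords, with all libraries and without the 3 control libraries that stand apart. All symbols are open, as no adjusted p was under 0.05, and leaving out those libraries moves Irf5 in injured cords to -0.11 and Irf7 to -0.46.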

How the data were processed

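Per the labels' protocols, poly(A) RNA of 14 mouse cords was sequenced in paired ends, not strand-specific. CASAVA 1.8, HISAT2 and the mm39 build are named, per the submitters' processing notes, and no counting program is. The authors deposited FPKM values for 56748 genes with names, lengths and mm39 positions. Dividing each value times gene length by the smallest such product in its library gave whole reads within 0.01 for all values above 0, and 13263610 to 21969581 reads per library. Reads carry no molecular identifiers, so a floor of 3 reads at a value of 0 covers counting error only.

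The filter kept the 15155 genes that reached 1 FPKM in 3 or more of the 14 libraries. Limma 3.58.1 in R 4.3.3 fitted log2(FPKM + 1) with a trend on intensity; its two-sided p-values were adjusted by Benjamini-Hochberg over the kept genes, with a threshold of 0.05; pairwise comparisons used only their own libraries and the interaction all 14. The procedure was tested on simulated data. Those data held no libraries that stand apart and none rich in rRNA, so that test does not bear on the effect of such libraries. Irf4 and ratios between members were compared by exact two-sided permutation in scipy 1.17.1. The labels do not say whether replicates are separate litters or batches, and p-values measure the spread between these samples.

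Same-numbered control libraries deviated together from their group means across genes (correlations of 0.616, 0.832 and 0.733 between SCI and uninjured), although replicate 3 correlated more with another number (0.812), and replicate 1 stands apart in both groups. Control injury values with the replicate block are therefore given too; SCI replicate 4 has no uninjured partner and does not bear on them. The members and gene lists were chosen with earlier results of these data known. A gene of the partner list is not reported here and was left out of that list's counts and median. Named genes are the members, Csf1, up to 3 called members of each pathway list with the smallest p, and the 3 nearest protein-coding profiles. Promoter letters are RefSeq's on GRCm38.p6, matched by symbol. Alternatives covered the pseudocount, filter, scaling, voom, pooled fits, the block, and left-out libraries.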

Additional observations from a re-analysis of the deposited data

Results flagged for a closer look

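The Irf7 to Irf3 log2 ratio of control SCI replicate 4 was 0.19, far from the other 3 control SCI cords, which were at -0.75, -0.86 and -0.78; its gap to the nearest of them passed Dixon's 95% limit for 4 samples. It is 1 of the 3 libraries that stand apart, and its Irf3 level, 1.52 FPKM, was the lowest of the injured cords. Of 22 sets of values screened in this way, chance flags about 1 in 20.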

How the results depend on the processing

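Irf8, whose difference the filter fixed, is left out of the counts here. In AstroCSF1KO cords 4 members were called on injury (19.7% of genes called higher). With a filter of 5 FPKM 2 were called, Irf3 and Irf5 (20% of genes). That filter tests only Irf3, Irf5 and Irf8, and Irf5 then passes through injured libraries only, so it had to differ. With all 14 libraries in one fit 2 were called (5.52%). Without the 4 libraries rich in rRNA 1 SCI cord is left. The log2 changes were then 1.69 for Irf5, 0.94 for Irf7, 0.94 for Irf9 and 0.75 for Irf1. In control cords the 0 called (1.03% of genes) became 5 without the 3 libraries that stand apart (12.2%), 5 with the replicate block (5.32%) and 3 with all 14 in one fit (5.21%). Leaving out the 4 libraries rich in rRNA as well gives the same control fit, as all 4 are AstroCSF1KO. The block changed no other count by over 1.5 times; in the other comparisons at least 1 same-number correlation was below 0.1, so the numbers are shared labels there.
Signs turned only in values that were not called. Without the 3 libraries, then without those and the 4, injured genotype differences were 0.063 and 0.0085 for Irf2 and -0.20 and -0.0045 for Irf3, and -0.11 without the 3 for Irf5; uninjured ones were -0.083 and -0.034 for Irf1 and -0.058 and -0.063 for Irf9, and -0.0066 without the 7 for Irf7. Interactions were 0.10 and 0.046 for Irf2 and -0.27 and -0.11 for Irf5, 0.028 without the 7 for Irf1 and -0.032 without the 3 for Irf8. With a pseudocount of 0.1, Irf7 in injured cords was 0.019, Irf4 there -0.0023, and the interactions of Irf5 and Irf8 were -0.10 and -0.43; voom gave -0.075 and -1.38. Without the 3, the Irf1 to Irf2 ratio between genotypes was -0.26 in injured and -0.044 in uninjured cords and the Irf8 to marker ratio -0.17 in injured cords. With a pseudocount of 0.1 the Irf8 to marker ratio was 0.088 on injury in controls and 0.61 between uninjured genotypes; as a plain share, chosen after seeing the data, 0.15 and 0.54.
Leaving out 1 library at a time gave 4 to 5 called in AstroCSF1KO cords, or 5 to 6 with Irf8 counted. It also turned the signs that follow, given as ranges. On injury in controls, Irf3 was at -0.025 to 0.78. Between injured genotypes, Irf1 was at -0.16 to 0.0017, Irf7 at -0.16 to 0.20 and the Irf8 to marker ratio at -0.10 to 0.10. Between uninjured genotypes, Irf1 was at -0.083 to 0.34, Irf9 at -0.058 to 0.11 and the Irf1 to Irf2 ratio at -0.044 to 0.67. Interactions were -0.40 to 0.020 for Irf1, -0.28 to 0.13 for Irf2 and -0.49 to 0.32 for Irf3. They were -0.092 to 0.55 for Irf5, -0.35 to 0.0018 for Irf7 and -0.012 to 0.49 for Irf8. The causes were not tested. Depth limits Irf4 and the interferon genes.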
